A study of Mus musculus with 101 samples.

Results

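The aging_Young and aging_shared regions are 139 of the 868 target windows of a methylation capture panel, 128 filed under the first category name and 11 under the second. A region was kept where at least 80% of the lines had a value, which left 138 members (127 aging_Young and 11 aging_shared) of 787 kept regions. The aging_Young window at Coro2a was kept with values in 68 of 85 lines, and the one at H2-Q7, with values in 66, was left out. The sources used here do not say how the sites behind either name were chosen, so the names are used as written and no region is taken to change with age.

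The cells were 85 naive embryonic stem cell lines of the Diversity Outbred mouse stock, an outbred population bred from several inbred founder strains, and every line was cultured in medium with serum, LIF and the 2 kinase inhibitors of 2i. Methylation was read after hybrid capture by EM-seq, an enzymatic conversion that reads methylated and hydroxymethylated cytosine alike, and the study set out to measure how much it varies among lines. The labels give no treatment or genotype contrast, so the lines were grouped by the prefix of their names, which the sources used here do not explain: 28 B1, 18 B2, 20 B3A and 19 B3B lines. Each of the 85 columns is called a line, although 1 pair of B1 columns has names that differ only by a final N (member means of 8.84% with the N and 9.99% without) and may be 1 line. Among pluripotency genes, the kept windows at Nanog, Zfp42 and Tbx3 averaged 0.360%, 0.792% and 0.191% methylation. The Dppa3 window, with values in 64 lines, averaged 6.26% and was not kept. Among genes of differentiated cells, windows at Foxa2 (3.47%, 3.77% and 7.75%) and Sox17 (5.03%) were also low. Gata4 had 13.9%, Musk 48.8%, Pf4 48.2% and Pax6 56.7%. These levels describe the windows and not expression of the genes, and they were not used to identify the cells.

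Methylation of cytosine in CpG dinucleotides is copied at cell division by Dnmt1, added by Dnmt3 enzymes and removed with the help of Tet enzymes. Dense runs of CpGs at promoters, called CpG islands, are kept largely unmethylated in most cells, while isolated CpGs are usually methylated in differentiated tissue. Mouse embryonic stem cells held in 2i lose much of this methylation, and sets of CpGs whose level drifts with age in mouse tissues are used as epigenetic clocks.

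The promoters below are shown for the contrast in CpG content between members with the lowest and the highest methylation. They are the 3 lowest and the 3 highest members by mean among those whose window overlaps at least 150 bases of a RefSeq promoter window, and each is the 250 bases before the annotated gene start on the gene's strand, from RefSeq on GRCm38.p6, with CpGs in capitals.
Pgls, chr8:71591934-71592183, plus strand: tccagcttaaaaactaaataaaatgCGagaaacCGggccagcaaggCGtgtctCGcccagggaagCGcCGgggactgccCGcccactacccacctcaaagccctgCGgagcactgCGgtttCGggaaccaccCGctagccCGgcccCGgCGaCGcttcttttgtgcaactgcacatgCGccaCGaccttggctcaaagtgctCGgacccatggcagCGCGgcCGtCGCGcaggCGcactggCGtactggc
Dis3, chr14:99099771-99100020, minus strand: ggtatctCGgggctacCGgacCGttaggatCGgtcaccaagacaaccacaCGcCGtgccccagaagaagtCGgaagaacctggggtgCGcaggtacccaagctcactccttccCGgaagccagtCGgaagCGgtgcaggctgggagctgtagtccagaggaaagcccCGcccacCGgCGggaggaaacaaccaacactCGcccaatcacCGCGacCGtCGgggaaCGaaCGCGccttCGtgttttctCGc
Dclre1a, chr19:56548223-56548472, minus strand: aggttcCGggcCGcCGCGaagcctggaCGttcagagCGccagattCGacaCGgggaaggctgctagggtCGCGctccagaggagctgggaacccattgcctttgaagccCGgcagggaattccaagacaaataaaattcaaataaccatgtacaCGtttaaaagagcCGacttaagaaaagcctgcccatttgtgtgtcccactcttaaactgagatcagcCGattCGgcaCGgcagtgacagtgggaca
Igfbp6, chr15:102143936-102144185, plus strand: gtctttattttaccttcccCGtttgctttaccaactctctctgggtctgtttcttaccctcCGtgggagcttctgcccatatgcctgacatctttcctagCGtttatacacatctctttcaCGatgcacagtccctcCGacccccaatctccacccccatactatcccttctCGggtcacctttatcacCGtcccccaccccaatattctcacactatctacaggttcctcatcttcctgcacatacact
Lingo4, chr3:94398969-94399218, plus strand: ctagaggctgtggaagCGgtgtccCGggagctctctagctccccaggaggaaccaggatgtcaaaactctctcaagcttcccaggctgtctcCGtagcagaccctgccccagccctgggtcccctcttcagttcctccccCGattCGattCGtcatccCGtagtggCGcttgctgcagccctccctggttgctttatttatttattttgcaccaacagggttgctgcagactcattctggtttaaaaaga
Slc22a3, chr17:12507705-12507954, minus strand: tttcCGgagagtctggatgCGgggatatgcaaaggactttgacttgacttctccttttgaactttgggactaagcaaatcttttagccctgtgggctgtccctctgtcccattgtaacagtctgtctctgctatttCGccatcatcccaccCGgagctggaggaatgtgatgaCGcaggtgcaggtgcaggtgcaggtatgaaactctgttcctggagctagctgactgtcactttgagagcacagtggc

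The first 3 sequences held 25, 24 and 16 CpGs, and the other 3 held 7, 8 and 5. The target window at Pgls, which encodes an enzyme of the pentose phosphate pathway, averaged 0.149% ± 0.211 (SD, n = 85 lines). The window at Dis3, the catalytic ribonuclease of the RNA exosome, averaged 0.183% ± 0.276, and that at Dclre1a, a nuclease of DNA crosslink repair, 0.225% ± 0.324 (SD, n = 85 each). At Igfbp6, an insulin-like growth factor binding protein, the mean was 15.4% ± 11.04 (SD, n = 83). Lingo4, a leucine-rich repeat transmembrane protein, had 19.2% ± 13.9 and Slc22a3, an organic cation transporter, 23.02% ± 14.97 (SD, n = 85 each). All 5 capitalised CpGs of the Slc22a3 sequence were listed in the CpG table, with means from 5.20% to 21.6%, and 1 line reached 77.6% at one of them. In the Pgls, Dis3 and Dclre1a sequences, 16, 20 and 12 CpGs were listed, and no CpG among them averaged above 0.388%. None of the CpGs in the Igfbp6 and Lingo4 sequences was listed, so their values belong to the target window as a whole.

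A promoter window was overlapped by 22 of the 138 members (15.9%) and by 205 of the 649 other kept regions (31.6%). Of these 22 members, the 18 with a mean under 5% had a median of 17 CpGs in the 250 bases. The 4 with a mean of 5% or more had a median of 7.5, and all 32851 RefSeq promoter windows had a median of 6. The relation had exceptions on both sides, named here after their values were seen. At Apoe, the apolipoprotein of lipid transport, the promoter held 10 CpGs and the window averaged 0.421%. The Ajm1 promoter held 5 CpGs with a window mean of 1.96%, and the Tnfaip2 promoter, which the target window overlapped by 49 bases, held 21 with a mean of 7.64%. Over the 113 members with at least 1 listed CpG, the mean level and the number of listed CpGs had a Spearman correlation of -0.47 across regions, against -0.36 over 485 other kept regions. Regions of one panel share libraries and are not independent, and listing a CpG depended on a coverage filter, so these are descriptions.

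The members split about evenly between windows that were nearly unmethylated and windows that were partly methylated. Of 138 members, 70 (50.7%) had a mean under 5% over lines, and 39 (28.3%) a mean under 1%. A further 31 lay between 5% and 20%, 24 between 20% and 40%, and 13 at 40% or more. Among the 649 other kept regions, 143 (22.03%) had a mean under 5% and 50 (7.70%) a mean under 1%. The 221 kept regions of the third category with aging in its name, aging_Meer, held 63 (28.5%) under 5%. The median of the members' means was 4.57%, against 15.2% for aging_Meer and 18.2% for all other kept regions. In bulk DNA, a level of 20% in all cells and full methylation in some cells cannot be told apart.

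**Figure D1:**
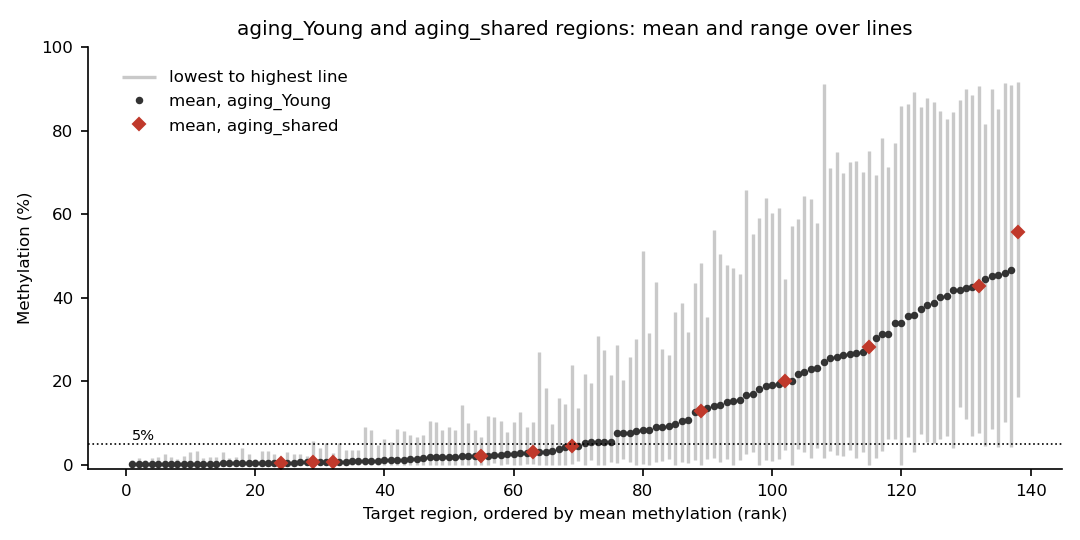
Each of the 138 kept members is placed by the rank of its mean methylation over lines (points, y axis in percent), with a bar from its lowest to its highest line; diamonds are aging_shared regions and the dotted line marks 5%. The left 70 members lie under the line, and the bars lengthen with the mean, up to a highest value of 91.7%.

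Among the lowest members, Prpf4b, a kinase of the splicing machinery, averaged 0.141% ± 0.211 (SD, n = 85) with a highest line at 1.11%. Rhot1, a GTPase that moves mitochondria, averaged 0.196% ± 0.288, and the window shared by Strn3, a striatin scaffold, and Ap4s1, an adaptor complex subunit, 0.214% ± 0.282 (SD, n = 85 each). No value of the 39 members under 1% reached 10% in any line, and 700 of their 3306 values were exactly 0. A 0 at unknown depth may stand for few reads or many. The highest values at Pgls, Rhot1, Strn3, Klf14 and Fgfr3 were all in the B1 column B1dB33, named here after its values were seen.

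At the other end, the 10 highest aging_Young windows averaged 40.4% to 46.5%. Scara5, a scavenger receptor that takes up ferritin, was the highest of them at 46.5% ± 22.7, from 4.24% through a median of 47.8% to 90.9% (SD, n = 85). Hspg2, the basement membrane proteoglycan perlecan, averaged 45.8% ± 20.1, and Ttyh1, a membrane protein of the tweety family, 45.2% ± 21.2 (SD, n = 85 each). The window 2325 bases from Ifna13, an alpha interferon gene, had 45.4% ± 20.9 (SD, n = 85). Sh3pxd2a, a scaffold of podosomes, averaged 44.6% ± 20.9 (SD, n = 81). The last 4 means differed by far less than the spread between lines of any of these windows. C1qtnf1, a secreted C1q-like protein, Hdgfl2, a chromatin-binding relative of hepatoma-derived growth factor, Grk6, a G protein-coupled receptor kinase, Bin1, a membrane-bending protein, and Coro2a, an actin-binding coronin, made up the rest. The window at 2900026A02Rik came next with 40.3% ± 20.2 (SD, n = 85) and was among the 10 aging_Young windows with the largest SD. Over the 13 members at 40% or more, 417 of 1084 values were above 50% and none was 0.

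The 11 aging_shared regions spanned the same scale and included the highest member. Those at transcriptional regulators were mostly low. At Sp8, a zinc-finger factor of limb and brain development (chr12:118848605-118849105), methylation was 0.599% ± 0.803 over lines, between 0 and 5.75% (SD, n = 85). That highest value was also in B1dB33, and the next column had 3.14%. Egr3, an immediate early transcription factor (chr14:70079443-70079943), had 2.16% ± 1.38, and Mn1, a transcriptional co-regulator (chr5:111418596-111419096), 3.101% ± 1.91 (SD, n = 85 each). Rara, the retinoic acid receptor alpha (chr11:98944812-98945312), stood apart from these 3 with 28.1% ± 16.9, from 0 through a median of 26.3% to 75.0% (SD, n = 84).

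Among aging_shared regions at ligands and surface receptors, the window 2055 bases from Wnt10b, a Wnt ligand (chr15:98780261-98780761), had 13.004% ± 9.53 (SD, n = 85). Epha8, an ephrin receptor of the nervous system (chr4:136946201-136946701), had 20.01% ± 9.79, and Itgb4, the integrin subunit of hemidesmosomes (chr11:115989410-115989910), 4.56% ± 4.25 (SD, n = 85 each). Rab35, a GTPase of endosomal recycling (chr5:115632544-115633044), was under 1%, with 0.717% ± 0.631. So was the window that overlaps Lrba, Mab21l2 and Gm31677 (chr3:86546960-86547460), called Lrba below, with 0.482% ± 0.359 (SD, n = 85 each). The remaining regions were the highest of the category, Gm39150, a predicted gene (chr8:26973424-26973924), at 42.8% ± 20.3 and Wscd1 (chr11:71759905-71760405) at 55.6% ± 20.8 (SD, n = 85 each). Wscd1 ran from 16.3% to 91.7% and had the highest mean of all 138 members. In the order of level, each region differed from the next by less than the larger of their SDs, except Rab35 and Egr3.

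**Figure D2:**
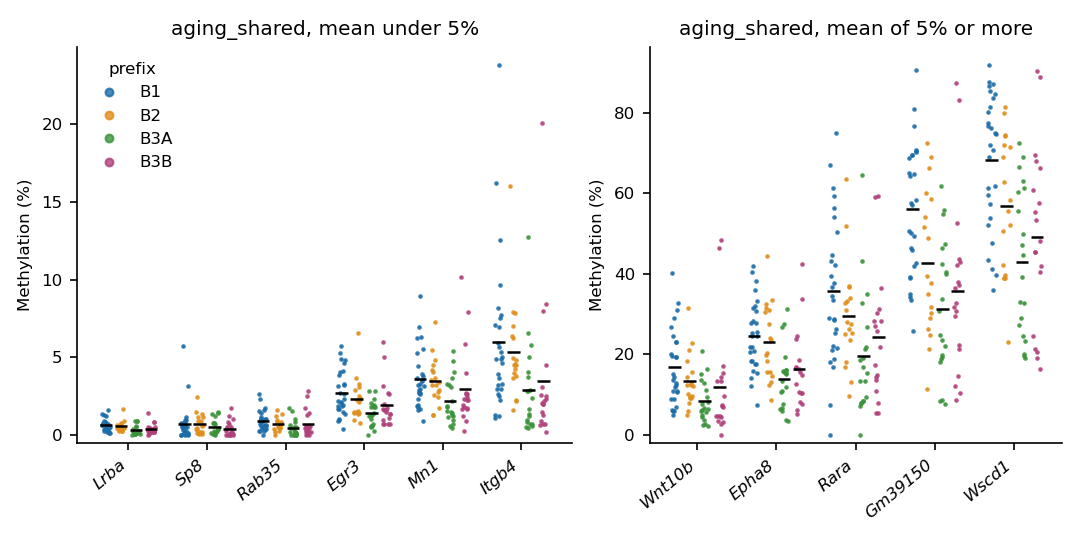
Methylation in percent of the 11 aging_shared regions, 1 dot per line, by prefix (B1, B2, B3A, B3B), with means as black bars; the left panel holds the 6 regions with a mean under 5% and the right panel the other 5, on different scales. The dots of the 4 prefixes overlap in every region, while the B3A mean is the lowest in 10 of the 11 and the B1 mean is the highest in 10.

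Most members that carried methylation passed a test between prefix groups, and few of those under 1% did. With limma's moderated F test on log2 odds, adjusted by Benjamini-Hochberg over all 787 kept regions, 92 of 138 members passed an adjusted p of 0.05, where 81.7% of all kept regions did. On untransformed fractions 73 members passed, where 72.3% of regions did, without the columns whose names end in N 71, where 67.5% did, and on lines with a single title 80, where 69.8% did. Of the 39 members under 1%, 5 passed, and of the 31 between 1% and 5%, 21 passed. Above that, 29 of 31 members between 5% and 20% passed, along with 24 of 24 between 20% and 40% and 13 of 13 at 40% or more. The other kept regions showed the same order, with 10 of 50, 65 of 93, 176 of 200, 217 of 223 and 83 of 83 passing in the same classes of level. Of the 92 members that passed, B1 had the highest mean in 82 and B3A the lowest in 91, where the shares over all 643 regions that passed were 89% and 93%. The B1 mean was above the B3A mean in 137 of 138 members, passed or not, and in 644 of 649 other kept regions.

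The aging_Young regions that passed with the smallest p included both low and high windows. Sh3pxd2a had 58.7% ± 15.3 in 27 B1 lines, 47.9% ± 16.6 in 17 B2 lines, 29.4% ± 19.8 in 19 B3A lines and 36.4% ± 19.1 in 18 B3B lines (SD; limma adjusted p = 7.95e-05). Its B1 lines ran from 25.7% to 81.5% and its B3A lines from 6.25% to 72.7%, so the groups overlapped. At Afmid, an enzyme of tryptophan breakdown, B1 lines had 25.6% ± 13.1, B2 lines 19.4% ± 10.8, B3A lines 8.56% ± 5.38 and B3B lines 16.004% ± 13.4 (SD, n = 28, 18, 20 and 19; limma adjusted p = 0.000102). The highest B3A line at Afmid had 19.6%, below the B1 median of 23.7%.

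Scara5 averaged 60.3% ± 18.2 in B1 lines and 30.1% ± 18.7 in B3A lines (SD), a difference of 30.2 points. Cpt1c, the brain form of carnitine palmitoyltransferase, differed by 26.8 points (B1 51.3% ± 19.5, B3A 24.5% ± 15.9, SD), and Csf1, the macrophage growth factor, by 26.5 points (B1 48.2% ± 19.3, B3A 21.6% ± 15.98, SD). Hdgfl2 and C1qtnf1 showed differences of 25.6 and 26.1 points between the same groups, and Susd1 one of 19.9 points. The limma adjusted p of these 6 regions lay between 0.000175 and 0.000214. Zfp423, a zinc-finger factor of neural and fat cell precursors, had 10.2% ± 4.84 in B1 and 4.94% ± 3.06 in B3A lines (SD; limma adjusted p = 0.000198). Dhx32, a helicase-like protein, passed at a mean of only 1.92%, with 2.79% ± 1.54 in B1 and 0.903% ± 1.02 in B3A lines (SD; limma adjusted p = 0.000165). The 6 CpGs listed for the Dhx32 window averaged 0.170% to 0.682%, all below the deposited average of the window, and the average recomputed from them gave a limma adjusted p of 0.14.

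Of the 11 aging_shared regions, 9 passed, where 81.7% of all kept regions did. Wscd1 had 68.4% ± 16.6 in B1 lines, 56.9% ± 17.3 in B2 lines, 42.9% ± 18.3 in B3A lines and 49.1% ± 22.2 in B3B lines (SD; limma adjusted p = 0.000266). Epha8 had 24.7% ± 8.70, 23.2% ± 9.43, 14.03% ± 7.81 and 16.5% ± 9.42 in the same 4 groups (SD; limma adjusted p = 0.000263). Gm39150 also passed, as did Wnt10b (limma adjusted p = 0.00362). Itgb4, at a lower level, had 5.98% ± 4.89 in B1 and 2.903% ± 2.96 in B3A lines (SD; limma adjusted p = 0.00117, or 0.0548 on untransformed fractions). Lrba passed at 0.614% ± 0.394 in B1 and 0.308% ± 0.283 in B3A lines (SD; limma adjusted p = 0.0284), but missed the threshold at 0.172 on untransformed fractions, 0.0736 with an offset of 0.05, 0.0837 on lines with a single title and 0.178 without the columns ending in N. Egr3 (limma adjusted p = 0.00625) missed it without those columns, at 0.0731. Mn1 (limma adjusted p = 0.0176) missed it at 0.093 on untransformed fractions and at 0.0745 on lines with a single title. Rara (limma adjusted p = 0.014) missed it at 0.0651 without the columns ending in N and at 0.0798 on lines with a single title. Rab35 missed it at 0.0632 but passed at 0.0136 with a smaller offset in the log odds, and Sp8 missed it at 0.564. For Lrba and Rab35, both under 1%, the call thus changed with the scaling of values near 0.

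Genes were grouped by the beginnings of their symbols, which gave few members each and missed genes such as Sp8. The 5 members on the list of developmental transcription factors had a median level of 2.61%, against 3.40% for all 26 kept regions of that list, and 2 of the 5 passed the prefix test, as did 15 of the 26. Klf14, Foxd3 and Foxl2os, an antisense RNA beside the ovarian factor gene Foxl2, had 0.454%, 0.485% and 2.61% and did not pass. Pou2f2, a B cell octamer factor, had 3.33% ± 2.47 and the window 1935 bases from Nkx6-1, a factor of beta cells and motor neurons, 17.1% ± 11.2 (SD, n = 85 each), and both passed (limma adjusted p = 0.0121 and 0.0327). Of 3 signalling windows, Wnt7b, a Wnt ligand, had 38.7% ± 20.1 and Fgfr3, a fibroblast growth factor receptor, 0.619% ± 0.588 (SD, n = 85 each). Wnt7b and Wnt10b passed and Fgfr3 did not, while 11 of all 13 kept signalling windows passed. Among 5 windows of adhesion and neural genes, Epha8 and Kcnip2, a potassium channel partner, passed at 20.01% and 22.3%, while the calcium channel subunit Cacng8 and the cadherins Cdh8 and Cdh11 had 0.249%, 0.365% and 2.06% and did not. Over all kept regions 14 of 20 on that list passed. The only member on the list of chromatin genes, the remodelling ATPase Smarca2, had 0.402% ± 0.629 (SD, n = 85) and did not pass, while 8 of 11 kept regions of the list did.

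The mean over members followed the level of the whole library closely, while single low members did so less. The mean over members was 12.4% ± 6.54 per line (SD, n = 85), from 2.34% through a median of 10.8% to 29.2%, while the mean over the other kept regions was 20.4% ± 10.8 and ran from 3.17% to 46.9%. Across the 85 lines these means had a Pearson r of 0.995 and a Spearman rho of 0.994, and r was 0.995 without the 2 lines farthest from the median. Within prefixes r lay between 0.992 and 0.996. Taken 1 region at a time, r had a median of 0.29 over the 39 members under 1%, from -0.05 to 0.67, and of 0.72 over the 31 members between 1% and 5%. The other kept regions had medians of 0.22 and 0.67 in the same classes of level, so low windows outside the members did likewise. Averaged per line, the members with a mean under 5% followed the other kept regions more closely than most did singly. Their average had a Pearson r of 0.85 and a Spearman rho of 0.863. All regions of a line share 1 library, and the correlation is given as a description. By prefix, the members averaged 15.8% ± 6.17 in B1 lines, 13.5% ± 5.61 in B2 lines, 8.32% ± 4.79 in B3A lines and 10.5% ± 6.84 in B3B lines (SD, n = 28, 18, 20 and 19). The 11 aging_shared regions averaged 19.6% ± 6.43, 16.3% ± 5.80, 11.3% ± 5.67 and 13.4% ± 7.71 in the same groups (SD).

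Low and high members had the same order of prefixes. The 70 members with a mean under 5% averaged 1.67% ± 0.87 in B1 and 0.87% ± 0.47 in B3A lines, and the 37 with a mean of 20% or more averaged 43.4% ± 15.5 in B1 and 23.5% ± 13.2 in B3A lines (SD, n = 28 and 20). The share of members at 5% or more ran from 15.3% of the windows in one line to 68.1% in another, with a median of 45.7%. Columns whose name ends in N made up 16 of the 20 B3A columns, 6 of 28 B1, 9 of 19 B3B and none of B2. Within the columns without a final N the members averaged 15.6% ± 6.71 in B1 and 5.54% ± 2.76 in B3A lines (SD, n = 22 and 4), and within those with one 16.3% ± 4.06 and 9.01% ± 4.997 (SD, n = 6 and 16). In lines with 1 title they averaged 14.9% ± 6.04 in B1 and 8.46% ± 4.66 in B3A (SD, n = 23 and 16). Lines with 2 titles lay further apart, at 19.8% ± 5.66 and 7.74% ± 6.02 (SD, n = 5 and 4).

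**Figure D3:**
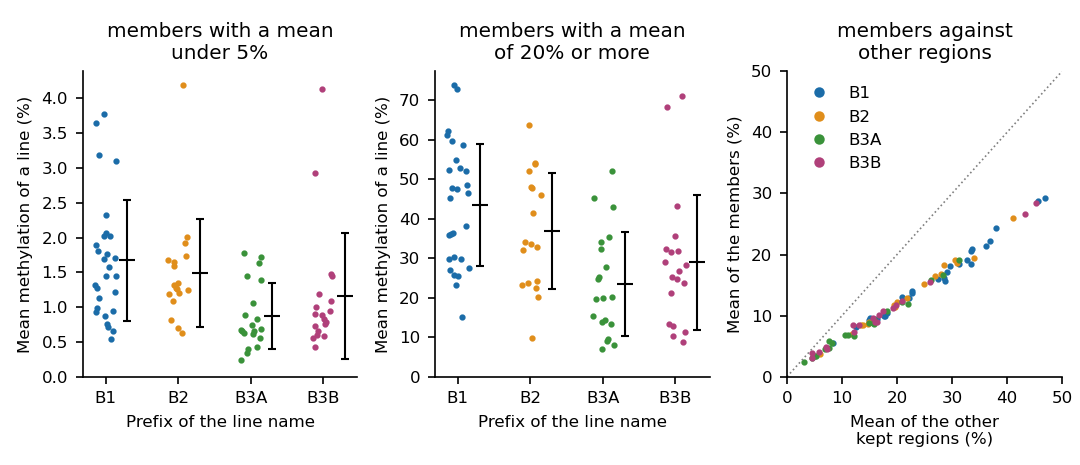
The left and middle panels show the mean methylation of each line (1 dot, in percent) over the 70 members under 5% and over the 37 members of 20% or more, by prefix, with the mean and SD of each prefix as a bar; the right panel sets the mean of all members against the mean of the other kept regions. The dots of the right panel follow a curve that stays under the dotted line of equality, up to 29.2% for the members.

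When the mean of the library was a covariate, 3 of 138 members passed limma's F test, where 3.43% of all kept regions did. They were Actl7b, an actin-like protein of the testis, Bik, a BH3-only protein of cell death, and Tnfaip2, a protein induced by tumour necrosis factor. Actl7b (chr4:56740518-56741018) had 36.4% ± 13.8 in B1 lines, 37.9% ± 14.7 in B2 lines, 23.5% ± 14.2 in B3A lines and 25.9% ± 17.9 in B3B lines (SD; limma adjusted p = 0.00763 with the covariate). Bik (chr15:83527127-83527627) had 6.27% ± 4.03, 6.56% ± 2.97, 3.83% ± 2.76 and 5.03% ± 5.35 in the same groups, and Tnfaip2 (chr12:111442662-111443162) 8.98% ± 4.74, 9.37% ± 4.60, 5.03% ± 4.59 and 6.80% ± 5.97 (SD; limma adjusted p = 0.0163 and 0.04 with the covariate). At all 3, B2 had the highest mean, whereas B1 had the highest over the whole member list. With the mean of the regions outside both categories as the covariate, these 3 and the aging_shared region at Gm39150 passed, the last at a limma adjusted p of 0.0497, where 4.7% of all kept regions did. The aging_shared regions with the highest levels, Gm39150 and Wscd1, had limma adjusted p of 0.053 and 0.097 with the library mean as covariate.

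A few partly methylated windows followed the library only loosely. Over members with a mean of 20% to 40%, the Pearson r between a window and the mean of the other kept regions had a median of 0.93, and over those at 40% or more 0.95. Zfp64, a zinc-finger protein, had the lowest r of the first class, 0.70 (Spearman 0.65, n = 85 lines). Its methylation averaged 24.6% ± 21.8, from 1.61% through a median of 18.2% to 91.1%, and 12 lines were above 50%. B1 lines alone spanned 5.24% to 91.1% there, with 31.3% ± 27.4, against 16.7% ± 16.7 in B3A lines (SD). By comparison, Cpt1c, with an SD of 21.9, had an r of 0.97, and 27 lines were above 50%. Loose windows were not particular to the members: among the other kept regions, the lowest r was 0.57 between 20% and 40% and 0.03 between 5% and 20%.

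Bcat2, a mitochondrial aminotransferase of branched-chain amino acids, had the lowest r among members of 5% or more, 0.54 over 77 lines, at a mean of 5.39% ± 6.35 (SD). The window 7657 bases from Gm38492 had an r of 0.58 at 5.39% ± 6.01, and neither of these passed the prefix test (limma adjusted p = 0.3 and 0.14). Padi4, an enzyme that converts arginine to citrulline in histones, had an r of 0.77 at 8.26% ± 8.39, and Gm41589, a predicted gene, 0.80 at 14.3% ± 10.8 (SD, n = 85 each). Padi4 reached 51.1% in 1 line, whose other regions averaged 45.6%, and stood at 21.2% in the line with the highest mean of other regions, 46.9%. The depth behind these windows is unknown, and its part in the values of r was not tested.

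**Figure D4:**
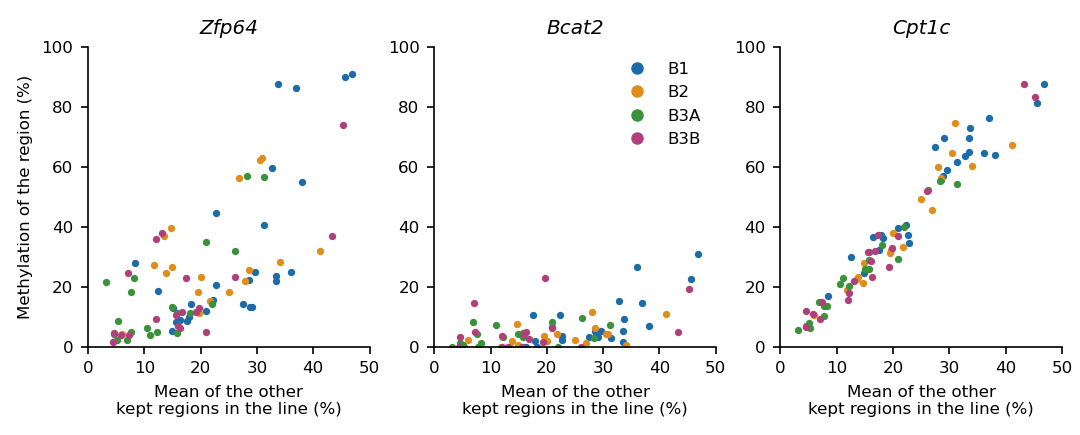
Methylation in percent of the Zfp64, Bcat2 and Cpt1c windows in each line (1 dot, coloured by prefix) against the mean of the other kept regions in that line. Zfp64 dots fan out between 1.61% and 91.1%, Bcat2 dots stay at or under 30.9%, and Cpt1c dots lie along a narrow band.

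The CpG table listed 1376 CpGs in 113 members, up to 63 in 1 window, and 25 members had none. Of these CpGs, 1022 (74.3%) averaged under 5% and 21 averaged over 50%, and 48.4% of all 7917 listed CpGs averaged under 5%. By limma's F test adjusted over all listed CpGs, 341 of the 1376 differed between prefixes, where 45.2% of all listed CpGs did. With the library mean as a covariate, 1 did, where 0.177% of all did. That CpG (chr7, position 127108858) lies in the aging_Young window at Qprt, an enzyme of NAD synthesis named here after its value was seen, and averaged 16.9% ± 16.4 (SD, n = 85; limma adjusted p = 0.0154).

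The windows were 500 bases long, and 77 of the 113 members with listed CpGs had one at the exact centre, at base 250 from the start in 46 and 1 base earlier in 31. No other offset held a CpG in more than 9 members. The same held for 134 of 192 aging_Meer windows. The central CpG was not set apart by its level over the members as a whole: its mean was above that of the other CpGs of its window in 39 members and below it in 38, with a median difference of 0.02 points.

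Individual windows did differ at the centre. At C1qtnf1 (chr11:118442606-118443106) the central CpG averaged 16.5% ± 15.5 and the 11 others 46.3%, and the centre was the lower in 85 of 85 lines, by 29.7 points ± 9.90 (SD). Going outward from it, the listed CpGs averaged 37.6% at 23 bases and 46.5% at 34 bases on one side and 22.5% at 47 bases, 39.1% at 80 bases and 45.3% at 131 bases on the other. The highest CpG of the window, 74 bases from the centre, averaged 61.9% ± 21.6 (SD, n = 85). Csf1, Hdgfl2 and Proser1 also had a lower centre, by 14.7, 11.95 and 10.9 points, in 76, 81 and 79 of 85 lines.

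The opposite arrangement was seen near Ifna13 (chr4:88640816-88641316), where the central CpG averaged 51.6% ± 20.9 against 35.9% for 4 others and was the higher in 79 of 85 lines. In the Bin1 window 75 lines, and in the Rcan1 window 76 lines, had the higher value at the centre. Some windows at lower levels had a higher centre as well. Mn1 had 7.44% ± 5.39 at the centre and 2.59% over 27 other CpGs, with the centre higher in 71 lines, and Bik had 12.5% ± 10.9 against 4.61% over 28 others, higher in 74 lines (SD, n = 85 each). Proser1 and Rcan1 were picked once their values were known.

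The widest difference between CpGs of one window was in Actl7b, where means ran from 5.80% to 52.8% over 22 CpGs. The low CpG of Actl7b, 159 bases from the centre, had neighbours at 34.6% and 25.2%. In the aging_shared window at Epha8, 8 CpGs ran from 3.63% to 39.4%, with the lowest 3 side by side, 132 to 160 bases before the centre, and the highest 2 at 144 and 156 bases after it. The 7 CpGs listed in Grk6 ran from 22.8% to 61.04%, and the 3 in Pi16, a peptidase inhibitor, from 11.2% to 49.05%. By the CpG test, 6 of 8 CpGs in Epha8 and 19 of 22 in Actl7b differed between prefixes, where 45.2% of all listed CpGs did, and both windows are shown for their wide differences between CpGs. At Slc22a3 the CpGs farther from the gene start were the more methylated: those 76 to 113 bases before it averaged 5.20% to 11.6%, those 230 and 245 bases before it 21.6% and 15.4%, and those 398 to 411 bases before it 36.4% to 38.7%.

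**Figure D5:**
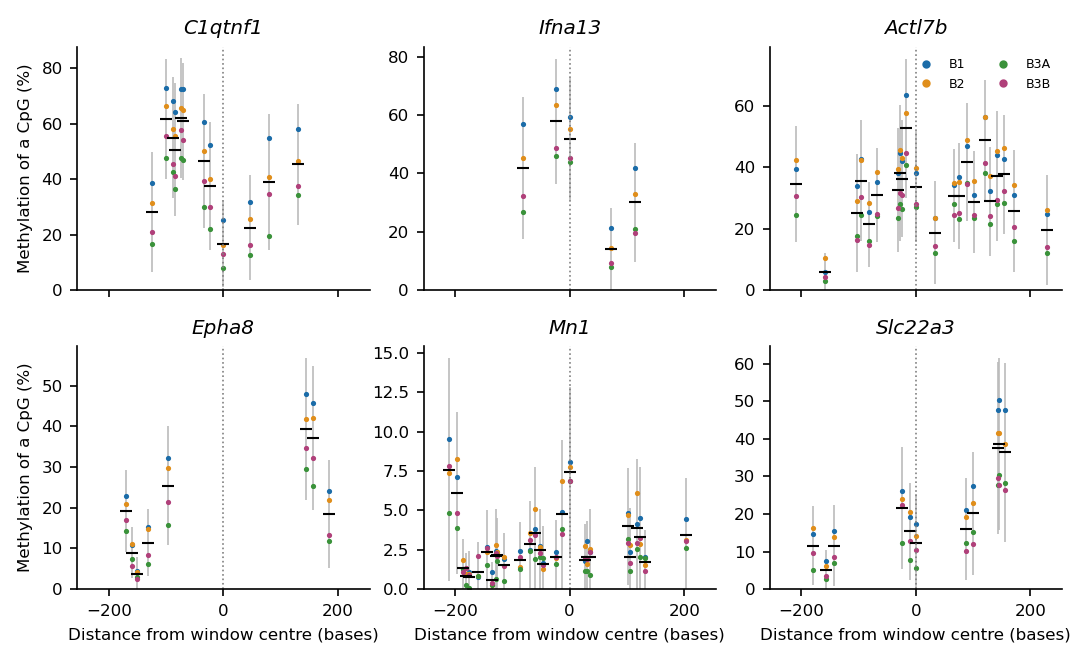
Methylation in percent of every listed CpG of 6 members against its distance in bases from the centre of the window; black bars are means over 85 lines, grey bars the SD cut at 0, and coloured dots the means of B1, B2, B3A and B3B lines. C1qtnf1 dips at the centre to 16.5%, and the order of the prefixes is kept at most CpGs of the partly methylated windows.

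One member overlapped a window of another category. The aging_Young window at B230208B08Rik (chr4:78212147-78212647) averaged 9.81%, and the aging_Meer window that overlaps its start (chr4:78211704-78212204) averaged 1.04%. By annotation, 117 of the 138 members overlapped a RefSeq gene, 18 lay within 5000 bases of one and 3 lay further away, and the gene table used here holds no exons.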

How the data were processed

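The authors deposited 2 tables used here: average methylation fractions of 868 target regions and methylation fractions of 7917 CpGs, each with 85 columns. The region values, entered as another unit because the table marks missing values in text, are fractions between 0 and 1 deposited without read counts. The tables' names state a coverage filter of 10, and no counts are given, so the depth behind a value cannot be given and no counting interval was made. Trim Galore 0.6.4, Bismark, Bowtie2 and mm10 come from the submitters' processing notes.

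Columns were placed by title (44) or by prefix (41: 16 named lines with 2 titles, 24 had a final N the title lacks and 1 had no title). No label says that columns are separate cultures, and p-values cover only the spread among them, which may be technical. Prefixes were compared by limma's moderated F test (limma 3.58.1, R 4.3.3) on log odds, log2((fraction + 0.01)/(1 - fraction + 0.01)), Benjamini-Hochberg adjusted over all kept regions or all CpGs at a threshold of 0.05. The test was also run on simulated data in which every region was drawn independently. The real regions of a line share 1 library, so that run cannot show how the test behaves under such dependence. The library mean was a covariate in an alternative fit. Missing values were dropped per region and none was imputed.

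Gene names and promoters came from RefSeq tables of GRCm38.p6, which shares coordinates with mm10: 1429 of 1429 listed CpG positions in promoter windows read CG. Named regions were every aging_shared region; among aging_Young the 10 smallest p, 10 highest and 5 lowest means, 10 largest SDs, 5 lowest correlations with the other regions (means of at least 5%), those called with the covariate and the 5 largest differences between CpGs; and members of 4 symbol lists. The 6 printed promoters were chosen by level after that. Members and lists were chosen with earlier results of these data known. Python 3.11.15, NumPy 2.4.6, pandas 2.3.3, SciPy 1.17.1 and matplotlib 3.10.9 were used.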

Additional observations from a re-analysis of the deposited data

How the results depend on the processing

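With the library mean as a covariate the members that differed between prefixes numbered 3 in place of 92, and with the mean of the regions outside both categories, a choice made after seeing the data, 4. CpGs of members that differed numbered 1 in place of 341 with the library mean as a covariate. The median over members averaged 4.269% per line, against a mean of 12.36%. In the other alternatives (offsets 0.001 and 0.05, untransformed fractions, stricter and looser filters on missing values, columns without a final N, lines with 1 title, averages recomputed from the CpG table, trend and robust moderation) the members that differed numbered between 71 and 96 of 138, except that 80 of 117 did among regions with a value in every line, 71 of 113 with averages from the CpG table and 93 of 139 with the looser filter. Members with a mean under 5% numbered between 69 and 76 of 138, or 60 of 117, 62 of 113 and 71 of 139 in those 3 settings, and the mean per line lay between 11.61% and 13.15%. Over all kept regions, 72.3% passed on untransformed fractions, 67.5% without the columns ending in N and 69.8% on lines with 1 title. For the remaining alternatives, the averaged pair of columns below included, no such share is given here. Their counts therefore do not set the members apart from other regions. Of 54 named regions 37 passed, where 81.7% of all kept regions did. Some regions were named for their small p, so the 37 are no result about the named regions. Of the 37, 8 no longer passed without the columns ending in N and 9 on lines with 1 title or on untransformed fractions. Rab35 passed with the offset 0.001 and with trend and robust moderation. With the library mean as a covariate 34 of the 37 no longer passed, and with the mean of other regions 33. With the pair of B1 columns whose names differ by a final N averaged, an alternative chosen after seeing the data, 93 of 138 members differed and all 37 passed. No paired analysis was possible because the replicate numbers follow accession order and the line numbers in the column names show no pairing between prefixes. Depth is unknown, so values near 0 could not be told from undersampled ones.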
